A study of Mus musculus with 6 samples.

Results

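Cytochrome P450 enzymes are heme proteins that insert 1 oxygen atom into fatty acids, steroids, retinoids, drugs and environmental chemicals. The P450 genes described here were the protein-coding rows of the count table whose symbol is Cyp followed by a family number, a subfamily letter and a gene number. The rule used names only and found 94 genes among 55039 in the table, of which 22046 were protein-coding. The libraries were made from epididymal white adipose tissue (eWAT) of male C57BL/6 mice that were 6 to 7 weeks old when assigned to a group, with 1 library per mouse. The 3 CAC (cancer-associated cachexia) mice carried subcutaneous Lewis lung carcinoma (LLC) cells, a transplanted line from a mouse lung tumor, and the 3 CONT mice had received phosphate-buffered saline (PBS) alone. All tissue was taken 28 days after injection, and every mouse was of the same strain and sex. The comparison asks which P450 genes white fat expresses and which of them differ in fat lost to a tumor.

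In liver, P450 enzymes of families 1 to 3 clear drugs and pollutants, and those of family 4 hydroxylate fatty acids at the end of the chain. Mitochondrial and sterol-metabolizing members make steroid hormones, bile acids, active vitamin D and oxysterols, while the Cyp26 enzymes break down retinoic acid. Most of the enzymes sit in the endoplasmic reticulum and receive electrons from P450 oxidoreductase, and their genes are switched on by receptors for the compounds they act on. In adipose tissue, they are known for acting on fatty acids, retinoids and stored lipophilic chemicals.

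The libraries held 15713794 to 25926425 counted reads, and 1 CPM (a read count scaled to library size with edgeR's TMM factors) stood for 11.2 to 26.5 reads. CONT replicate 1 stood apart, since mitochondrially encoded genes took 30.2% of its reads against 3.89% to 5.04% in the other libraries. Adipocyte markers were high in all libraries, with summed levels of 21283 to 53028 CPM in CONT and of 31927 to 43017 CPM in CAC over 9 of 9 listed genes, although leptin (Lep) had 3.996 and 0.415 CPM in CAC replicates 2 and 3 against 409 to 697 CPM elsewhere. Markers of other tissues were uneven. The 6 germ cell markers summed to 1093 CPM in CONT replicate 2 and 1553 CPM in CAC replicate 3, against at most 16.4 CPM elsewhere, and the 12 epididymis markers summed to 13780 CPM in CONT replicate 3. The 8 hepatocyte markers summed to 16.0 to 35.9 CPM in CONT and reached 109 CPM in CAC replicate 3. The 7 B and plasma cell markers went with the groups, at sums of 35.4 to 96.4 CPM in CONT and 8.68 to 20.3 CPM in CAC. Of these, 5 were lower without overlap, against 10.7% of all genes tested. Of 10 progenitor and fibroblast markers, 3 were lower in CAC at an unadjusted p under 0.05 and 0 higher. The shares of all genes tested were 6.95% and 6.31%. Without overlap, 3 of the markers were lower and 1 higher, against 10.7% and 11.8% of all genes tested. The part of these cells in the results was not tested. In bulk tissue, fewer cells of a type and less RNA per cell cannot be told apart. Genes were compared with each other by FPKM (fragments scaled to gene length and a size factor of the library), which accounts for gene length, and libraries with each other by CPM.

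White fat expressed a small part of the P450 gene set, and 1 gene made up most of it. A gene was called expressed where its mean FPKM was at least 1 in either group, and 18 of the 94 P450 genes (19.1%) were, against 12367 of 22046 protein-coding genes (56.1%). Of the other 76 genes, 64 had at least 1 read in some library and 12 had none. Just inside the threshold was Cyp39a1 with a mean of 1.39 FPKM in CAC, and just outside were Cyp2d9 with 0.921 FPKM in CONT and Cyp4a32 with 0.876 FPKM in CAC. Lowering the threshold to 0.5 FPKM gave 26 genes, and raising it to 5 FPKM gave 14. By role, the expressed genes were 2 of 3 in family 1, 6 of 48 in family 2, 0 of 7 in family 3 and 6 of 17 in family 4. A further 2 of 6 act on cholesterol and oxysterols, 1 of 3 breaks down retinoic acid, and the orphan Cyp20a1, whose substrate is unknown, was the last. None of the 6 genes of steroid hormone synthesis and none of the 3 of vitamin D metabolism reached the threshold.

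In CONT, Cyp2e1 stood at 916 ± 224 FPKM (SD, n = 3), and the next levels were 27.7 ± 4.44 for Cyp4b1, 16.8 ± 3.03 for Cyp27a1 and 14.4 ± 4.35 for Cyp2d22. The levels of Cyp27a1 and Cyp2d22 lay within each other's spread. Cyp2f2, Cyp20a1, Cyp1b1, Cyp4v3 and Cyp4f13 followed at group means of 7.75 to 9.19 FPKM, with overlapping libraries. In CAC, Cyp2e1 stood at 3116 ± 458 FPKM, followed by Cyp4b1 at 43.3 ± 24.3, Cyp2d22 at 29.9 ± 7.94 and Cyp4f17 at 28.8 ± 12.5, and the libraries of the last 3 overlapped.

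**Figure D1:**
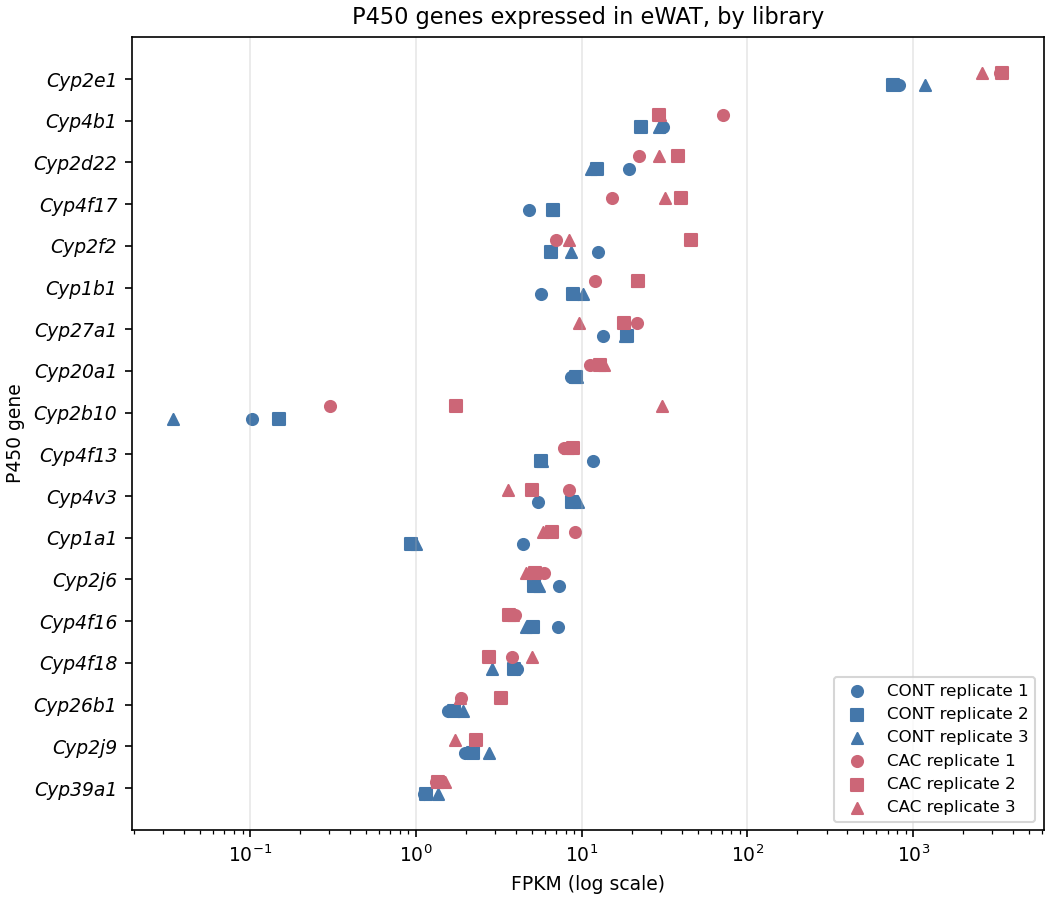
Deposited FPKM (log axis) of the 18 P450 genes expressed in eWAT, 1 point per library, with CONT in blue and CAC in red and the marker shape giving the replicate. Cyp2e1 lies far to the right of every other gene in all 6 libraries, and Cyp2b10 spreads from 0.0344 FPKM in CONT replicate 3 to 30.3 FPKM in CAC replicate 3.

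The whole gene set took 0.192%, 0.291% and 0.390% of the reads in CONT replicates 1 to 3 and 0.915%, 1.09% and 0.780% in CAC replicates 1 to 3. Each CAC library was above each CONT library. Cyp2e1 alone supplied 82.8 ± 3.24% of the P450 reads in CONT and 91.2 ± 1.24% in CAC (SD, n = 3). The FPKM summed over all 94 genes averaged 1053 ± 224 in CONT and 3345 ± 467 in CAC. Without Cyp2e1 the sums were 138 ± 7.14 and 229 ± 22.0, and the groups still did not overlap.

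CAC was compared with CONT by edgeR's quasi-likelihood test over the 17296 genes that passed its filter on low counts, among them 29 P450 genes, while 65 were not tested. No P450 gene had an adjusted p under 0.05, and 0% of all genes tested did, the smallest adjusted p of any gene being 0.127. At an unadjusted p under 0.05 there were 7 P450 genes higher in CAC (Cyp2e1, Cyp2d22, Cyp2b10, Cyp4f17, Cyp1a1, Cyp1b1 and Cyp20a1) and 1 lower (Cyp4f16). The shares of all genes tested were 6.31% higher and 6.95% lower. The same shares apply to the counts of families and gene lists below. All of the 8 were among the 18 expressed genes, and with 1 library left out the count went from 5 without CONT replicate 2 (9.30% of all genes) to 9 without CONT replicate 1 (15.6%) or CAC replicate 3 (8.32%). It was 11 in edgeR without a filter on low counts, where 7.62% of all genes had such a p, and 11 with voom, where 28.4% did. Among the 29 tested, the groups did not overlap in 8 P450 genes that were higher in CAC and 2 that were lower, against 11.8% and 10.7% of all genes, and overlapped in 19. A further 3 that were not tested (Cyp11a1, Cyp17a1 and Cyp2j13) were lower in CAC without overlap. The shares given cover tested genes only, so these 3 have no share to be read against. The median log2 fold change of the 29 was 0.18, with 18 above 0, against -0.06 over all genes tested. DESeq2, the study's tool, gave 5 P450 genes an adjusted p under 0.05, all higher in CAC (Cyp2e1, Cyp2d22, Cyp2b10, Cyp4f17 and Cyp1b1). It gave 33 P450 genes an adjusted p, and called 5.62% of all genes, 3.22% higher and 2.4% lower. That count was 3 without CONT replicate 2 or without CAC replicate 2, and 2 without CAC replicate 3. For a single gene, 3 libraries against 3 allow no exact two-sided permutation p below 0.1.

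**Figure D2:**
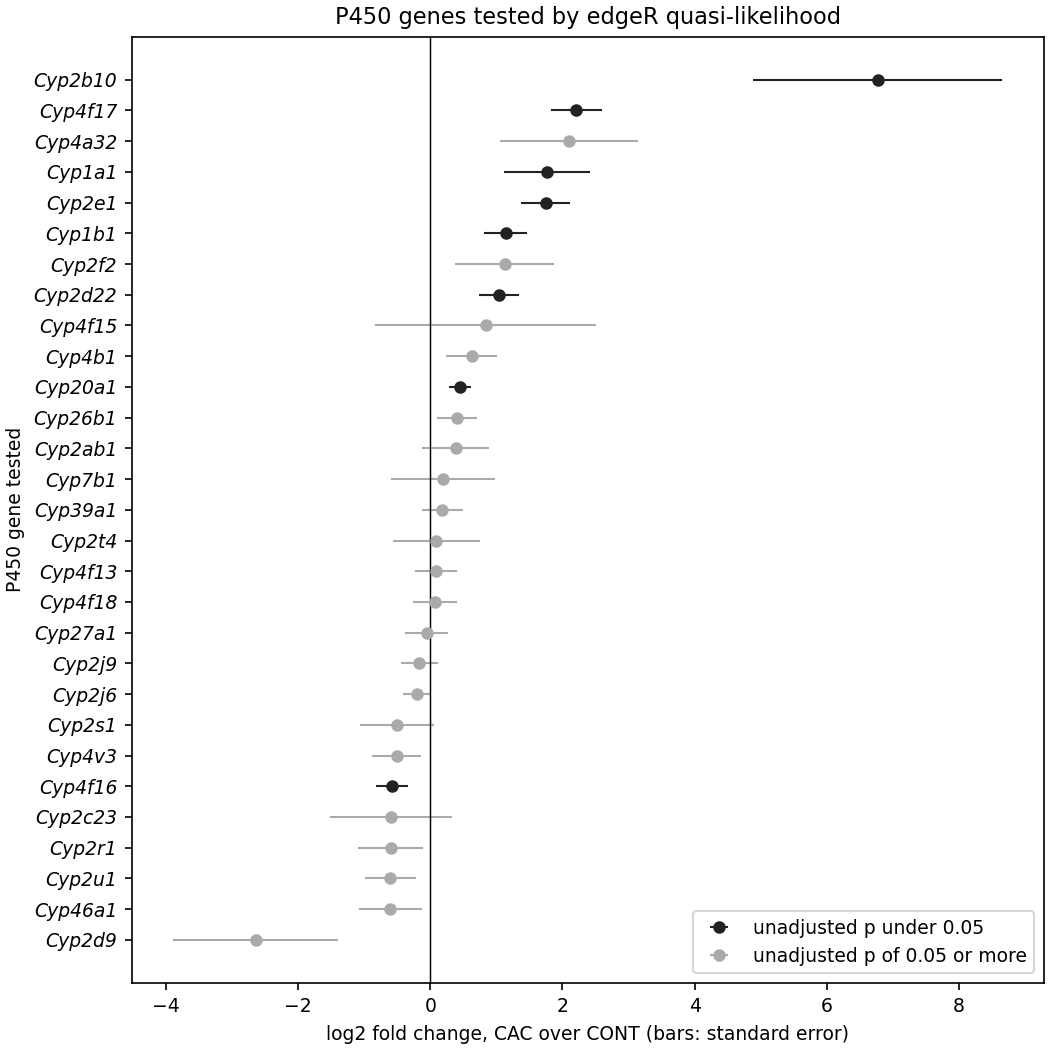
Log2 fold change (CAC over CONT) by edgeR for the 29 P450 genes tested, with bars of 1 standard error. Black points have an unadjusted p under 0.05, of which 7 lie right of 0 and Cyp4f16 lies left at -0.58, and the widest of the black bars is that of Cyp2b10.

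Family 1 genes are the classic targets of the aryl hydrocarbon receptor (Ahr), a sensor of dioxins and of plant and microbial ligands, which binds DNA with its partner Arnt. Both expressed members were higher in CAC. Cyp1a1 (chromosome 9, 57687928 to 57703824, plus strand, GRCm38) oxidizes polycyclic aromatic hydrocarbons. It had 15.2, 3.24 and 3.48 CPM in CONT replicates 1 to 3 and 31.0, 22.9 and 20.0 CPM in CAC replicates 1 to 3. CONT replicate 1 was the highest of its group and still below every CAC library. The log2 fold change was 1.76 (SE 0.65, adjusted p = 0.339 by edgeR), between 1.41 without CONT replicate 2 and 2.89 without CONT replicate 1, and the adjusted p by DESeq2 was 0.104, or 1.73e-17 without CONT replicate 1 and 0.283 to 0.304 without CONT replicate 3 or 2. With voom it was 0.0199. Cyp1b1 (chromosome 17, 79706953 to 79715041, minus strand) oxidizes estrogens, retinoids and polyunsaturated fatty acids. It had 36.1, 57.1 and 64.7 CPM in CONT and 74.8, 138 and 136 CPM in CAC. The groups did not overlap, CAC replicate 1 being the lowest of its group. The log2 fold change was 1.14 (SE 0.33, adjusted p = 0.275), between 0.94 and 1.43 with any 1 library left out, and the adjusted p by DESeq2 was 0.0335, which went up to 0.210 and exceeded 0.05 without CONT replicate 1 or 2 or CAC replicate 2 or 3. The third gene, Cyp1a2, a liver enzyme, had 1 read in CONT replicate 1 and 16 in CAC replicate 3.

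The Ahr and Arnt pair recognizes GCGTG, the core of its response element. RefSeq (GRCm38.p6) promoter windows from 250 bases before to 50 after each start were searched for it on both strands, as GCGTG or CACGC. The 250 bases before the start are shown for Cyp1a1 and Cyp1b1, the expressed targets of the receptor, 5′ to 3′ on each gene's strand with the match in capitals. They lie at chr9:57697363-57697612 (plus strand) and chr17:79715062-79715311 (minus strand), outside annotated exons. The RefSeq start of Cyp1a1 lies inside the gene span of the count table given above, which begins further upstream.
Cyp1a1: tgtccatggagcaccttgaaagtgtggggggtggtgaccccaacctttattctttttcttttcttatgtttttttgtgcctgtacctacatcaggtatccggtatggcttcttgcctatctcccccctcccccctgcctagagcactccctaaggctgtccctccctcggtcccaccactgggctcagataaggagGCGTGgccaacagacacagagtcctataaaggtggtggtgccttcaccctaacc
Cyp1b1: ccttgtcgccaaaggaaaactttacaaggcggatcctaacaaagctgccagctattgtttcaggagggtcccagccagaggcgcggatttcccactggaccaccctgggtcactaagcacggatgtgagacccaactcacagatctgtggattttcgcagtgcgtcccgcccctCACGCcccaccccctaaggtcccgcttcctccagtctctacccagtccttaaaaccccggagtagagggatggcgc
The Cyp1a1 window had 1 match, as GCGTG, 54 bases before the start, and the Cyp1b1 window 1 match on the other strand, as CACGC, 76 bases before the start. Among the other P450 genes with an unadjusted p under 0.05, the windows of Cyp20a1, Cyp2b10 and Cyp4f16 held the core and that of Cyp2e1 did not, while Cyp2d22 and Cyp4f17 had no window. The core was found in 17 of 83 windows of 73 P450 genes (20.5%) and in 32.4% of 32851 windows of all genes. A match is a run of letters only.

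Other genes that respond to the receptor were not on a list of their own, but Ahr and Arnt stood on a list of 22 receptors of P450 genes. Arnt had 65.7, 82.0 and 89.2 CPM in CONT and 137, 146 and 122 CPM in CAC, without overlap (log2 fold change 0.78, SE 0.19, adjusted p = 0.249 by edgeR and 0.00397 by DESeq2). Ahr itself, named after its values were seen, had 17.2, 16.6 and 25.8 CPM in CONT and 30.3, 34.5 and 23.9 CPM in CAC, with overlap (0.57, SE 0.26, adjusted p = 0.400). Of 20 receptors tested, Arnt was the only gene with an unadjusted p under 0.05 in either direction, and the median of the list was 0.43. Ppara, the fatty acid receptor that drives Cyp4a genes, had 1.43, 9.77 and 8.95 CPM in CONT and 8.62, 38.4 and 28.8 CPM in CAC, and the groups overlapped (1.90, SE 0.81, adjusted p = 0.379). Rxra, the shared partner of these receptors, had a log2 fold change of 0.60 (SE 0.26, adjusted p = 0.383), and its groups overlapped.

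Family 2 is the largest, and most of its enzymes act on drugs in liver or lung or on arachidonic acid. Of 48 genes, 12 were tested, 3 were higher in CAC at an unadjusted p under 0.05 and 0 lower. Cyp2e1 (chromosome 7, 140763739 to 140774987, plus strand) oxidizes ethanol, acetone and fatty acids. It had 2173, 2049 and 3151 CPM in CONT and 8679, 9157 and 6867 CPM in CAC. The lowest CAC library was far above the highest CONT library. The log2 fold change was 1.74 (SE 0.37, adjusted p = 0.228 by edgeR and 5.60e-08 by DESeq2), between 1.63 and 1.98 with any 1 library left out. By mean FPKM, Cyp2e1 ranked 32 of all genes in CONT and 6 in CAC. Cyp2e1 and Cyp1b1 are both in a table of fatty acid genes that the study picked on these same libraries, so their direction is no independent evidence.

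Cyp2d22 (chromosome 15, 82370527 to 82380260, minus strand), a member of the drug-oxidizing Cyp2d subfamily, had 93.3, 60.3 and 55.6 CPM in CONT and 106, 184 and 141 CPM in CAC. The groups did not overlap, but CONT replicate 1 and CAC replicate 1 were close. The log2 fold change was 1.04 (SE 0.30, adjusted p = 0.275), between 0.84 and 1.32 with any 1 library left out, and the adjusted p by DESeq2 was 0.0498, which went up to 0.274 and exceeded 0.05 without CONT replicate 2 or 3 or CAC replicate 2 or 3. Cyp2b10 (chromosome 7, 25897620 to 25926624, plus strand), the marker target of the drug sensor Nr1i3, had 3, 9 and 2 reads in CONT and 19, 113 and 2082 reads in CAC. The groups did not overlap, and CAC replicate 3 held 93.4% of all its reads. The log2 fold change was 6.78 (SE 1.88, adjusted p = 0.273), and 3.40 without CAC replicate 3. The adjusted p by DESeq2 was 6.61e-05, or 0.0811 without CAC replicate 3, and with voom it was 0.211. That library also had the most reads of hepatocyte markers, and its 6 brown adipocyte markers summed to 107 CPM against 12.2 to 45.0 CPM in the others. The brown adipocyte list was mixed between the groups. Of 5 tested, 1 was higher and 1 lower in CAC at an unadjusted p under 0.05, against 6.31% and 6.95% of all genes. The part of hepatocyte or brown adipocyte RNA in the result was not tested.

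Cyp2f2, which activates naphthalene in the lung, had 31.2, 16.5 and 21.7 CPM in CONT and 17.2, 113 and 20.8 CPM in CAC. CAC replicate 2 alone was high, and the log2 fold change went from 1.13 (SE 0.75, adjusted p = 0.537) to -0.27 without it. The expressed arachidonic acid epoxygenase Cyp2j6 had 23.1 to 32.4 CPM in CONT and 20.5 to 25.8 CPM in CAC (log2 fold change -0.21, SE 0.21, adjusted p = 0.693). Its neighbour Cyp2j9 had 8.11 to 11.5 and 7.06 to 9.49 CPM (-0.17, SE 0.28, adjusted p = 0.831). In both genes the groups overlapped. Cyp2u1, a hydroxylase of long fatty acids below the expression threshold, had 4.82, 4.20 and 2.94 CPM in CONT and 2.83, 2.58 and 2.42 CPM in CAC. Its groups were next to each other without overlap (log2 fold change -0.61, SE 0.38, adjusted p = 0.519). Cyp2d9, a male-specific liver gene, had 4, 123 and 76 reads in CONT and 1, 8 and 29 in CAC, and the groups overlapped (-2.64, SE 1.25, adjusted p = 0.418). The log2 fold change of Cyp2d9 was -4.03 without CAC replicate 3 and -1.97 without CONT replicate 2. Cyp2j13, which was not tested by edgeR, had 2, 43 and 29 reads in CONT and 1, 3 and 0 in CAC. In CPM its groups did not overlap (0.178 to 1.88 against 0 to 0.121), and DESeq2 gave an adjusted p of 0.0516. Cyp2t4 had 93 reads in all and lies opposite Egln2, with 17320 reads; whether strand was used in counting is not given in the sources used here, so its reads are uncertain.

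**Figure D3:**
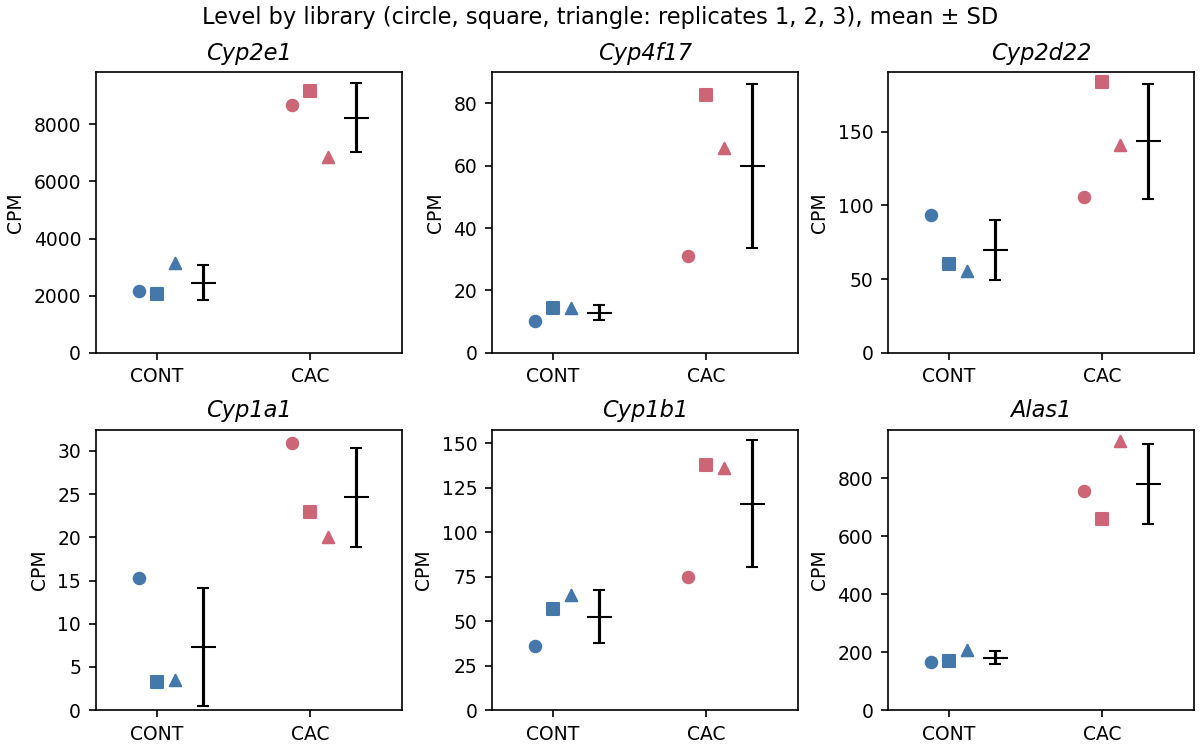
CPM by library of 5 P450 genes and of Alas1, which makes the first precursor of heme, with the mean ± SD of 3 libraries beside the points and each axis starting at 0. In all 6 genes the lowest CAC library lies above the highest CONT library, with the narrowest gaps in Cyp2d22 and Cyp1b1.

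Family 4 enzymes hydroxylate fatty acids and eicosanoids at the end of the chain, the first step of their breakdown to dicarboxylic acids. Of 17 genes, 6 were expressed and 8 tested, with 1 higher and 1 lower in CAC at an unadjusted p under 0.05. Cyp4f17 (chromosome 17, 32506462 to 32528894, plus strand) had 10.1, 14.3 and 14.2 CPM in CONT and 31.1, 82.7 and 65.7 CPM in CAC. The groups were well apart, although CAC replicate 1 lay under both other CAC libraries. The log2 fold change was 2.21 (SE 0.39, adjusted p = 0.215 by edgeR and 2.89e-05 by DESeq2), between 1.92 and 2.58 with any 1 library left out. Its neighbour Cyp4f16 (chromosome 17, 32536558 to 32551798, plus strand) lay on the other side of 0, with 26.8, 19.2 and 17.3 CPM in CONT and 14.5, 13.5 and 14.3 CPM in CAC. The groups did not overlap, CONT replicate 1 being the highest, and the log2 fold change was -0.58 (SE 0.24, adjusted p = 0.370), or -0.36 without that library. Of the 100-base words of Cyp4f16 transcripts, 9.80% were shared with other genes, mostly Cyp4f37.

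Cyp4b1, the second P450 gene by mean FPKM in both groups but not in CAC replicates 2 and 3 alone, had 86.4, 64.0 and 82.2 CPM in CONT and 195, 81.0 and 81.7 CPM in CAC. CAC replicate 1 alone stood out, and the log2 fold change of 0.62 (SE 0.39, adjusted p = 0.511) became 0.11 without it. Cyp4v3, a fatty acid hydroxylase, had 25.5 to 45.2 CPM in CONT and 16.7 to 39.0 CPM in CAC, with overlap (-0.51, SE 0.37, adjusted p = 0.571; -0.85 without CAC replicate 1 and -0.26 without CAC replicate 3). Cyp4f13 had 48.3, 23.9 and 23.9 CPM in CONT and 31.5, 36.4 and 33.7 CPM in CAC, so that CONT replicate 1 was above all CAC libraries and the other CONT libraries were below them (0.08, SE 0.31, adjusted p = 0.935). Without CONT replicate 1 its log2 fold change was 0.52 by edgeR (adjusted p = 0.237) and 0.56 by DESeq2 (adjusted p = 0.00608). Cyp4f18, a leukotriene hydroxylase of neutrophils, had 6.69 to 9.27 CPM in CONT and 6.34 to 11.4 CPM in CAC (0.07, SE 0.33, adjusted p = 0.947). It overlaps Zfp961 on the opposite strand, with 1441 reads against its own 1125, and the reads of such a pair cannot be told apart without strand.

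The Cyp4a genes, textbook targets of Ppara, were at trace levels. Cyp4a32 had 0, 11 and 13 reads in CONT and 79, 20 and 23 in CAC, and the groups did not overlap (log2 fold change 2.10, SE 1.04, adjusted p = 0.429). CAC replicate 1 held 54.1% of its reads, and the log2 fold change was 1.25 without it. It shared 20.1% of its 100-base words with other genes, mostly Cyp4a10, so its reads are uncertain. Cyp4a10 had 0 reads in the 3 CONT libraries and in CAC replicate 1, 33 in CAC replicate 2 and 68 in CAC replicate 3. Cyp4a14 had 1 read in CONT replicate 3 and 6 in CAC replicate 3. Other targets of this receptor were abundant enough to test. Of 12, 6 were higher in CAC at an unadjusted p under 0.05 and 0 lower, with a list median of 1.12. Of all genes tested, 6.31% were higher and 6.95% lower, and the median was -0.06. Pdk4, which slows glucose oxidation, had 18.7 to 24.4 CPM in CONT and 99.3 to 198 CPM in CAC (2.78, SE 0.30, adjusted p = 0.127 by edgeR and 3.11e-13 by DESeq2). The peroxisomal thioesterase gene Acot3 had 0.0892 to 1.18 CPM in CONT and 4.27 to 34.7 CPM in CAC (5.31, SE 1.19, adjusted p = 0.228 by edgeR and 2.47e-05 by DESeq2). Acot3 and Ehhadh, both of this list, are in the study's table of genes picked on these libraries too, so the count of the list is not independent of that choice.

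None of the expressed genes of sterol and retinoid metabolism had an unadjusted p under 0.05. Cyp27a1, the mitochondrial sterol side-chain hydroxylase of bile acid synthesis, had 35.8, 51.3 and 49.5 CPM in CONT and 57.0, 48.5 and 25.9 CPM in CAC. The groups overlapped across their whole range, and the log2 fold change was -0.06 (SE 0.32, adjusted p = 0.958). Cyp39a1, an oxysterol hydroxylase, had 4.19 to 5.15 and 4.93 to 5.59 CPM (0.18, SE 0.31, adjusted p = 0.837). Cyp26b1, which degrades retinoic acid, had 10.3, 11.4 and 12.9 CPM in CONT and 12.1, 21.6 and 12.2 CPM in CAC, so only CAC replicate 2 was above all CONT libraries (0.40, SE 0.31, adjusted p = 0.588, and 0.08 without that library). The orphan Cyp20a1 (chromosome 1, 60343323 to 60388060, plus strand) had 24.3, 26.5 and 26.7 CPM in CONT and 30.9, 36.5 and 38.3 CPM in CAC. The groups did not overlap, and the log2 fold change of 0.45 (SE 0.17, adjusted p = 0.345) was small beside those of Cyp2e1 and Cyp4f17. Of the 8 genes with an unadjusted p under 0.05, Cyp2e1, Cyp4f17, Cyp2d22 and Cyp1b1 kept it with any 1 library left out, and Cyp2b10, Cyp1a1, Cyp20a1 and Cyp4f16 did not, reaching 0.0505, 0.107, 0.102 and 0.124.

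The Cyp2c and Cyp3a genes, none of them expressed here, had most of their summed reads in 1 library. The 15 Cyp2c genes, which oxidize drugs and arachidonic acid, had 9, 11 and 10 reads together in CONT and 1, 4 and 175 in CAC, and all 15 had a read in CAC replicate 3. The 7 Cyp3a genes, the main drug oxidizers of liver, had 9, 5 and 3 reads in CONT and 2, 9 and 70 in CAC. Cyp2c29 had 57 of its 58 reads in CAC replicate 3, Cyp3a11 had 40 of 43, and Cyp2j5 and Cyp2c50 had all of their 16 and 11 reads there. Of 37 genes that were not expressed but had at least 10 reads, 12 had over 70% of them in that library. Such a share over all genes was not computed, and this library had the most counted reads. The number of P450 genes with any read was 73 in CAC replicate 3 and 41 to 54 in the other libraries. In the same library albumin (Alb) had 1478 reads against 30 to 270 in the others, Fgb had 137 against 0 to 3 and Ttr had 197 against 2 to 12, while Serpina1a with 69 reads was not highest there. The part of hepatocyte RNA in these reads was not tested. Of the 15 Cyp2c genes, only Cyp2c23 passed the filter and was tested (log2 fold change -0.60, SE 0.92, adjusted p = 0.813), and of the 7 Cyp3a genes 0 were. The value of Cyp2c23 was -2.18 without CAC replicate 3 and -0.05 without CAC replicate 1.

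**Figure D4:**
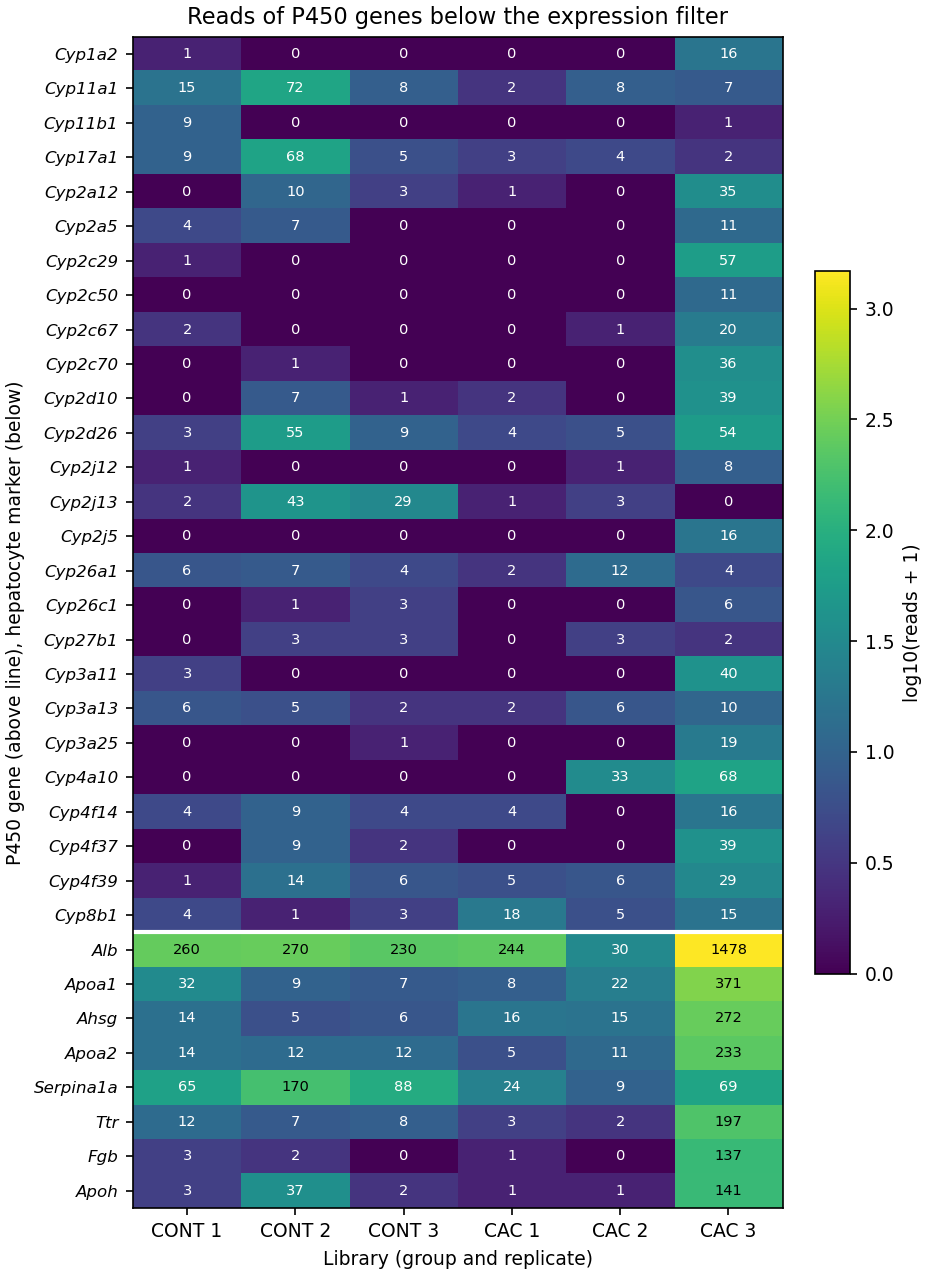
Reads of the P450 genes with at least 10 reads that were not tested (above the white line) and of 8 hepatocyte marker genes (below it), by library; color gives log10(reads + 1) and each cell holds its read count. The CAC replicate 3 column is the brightest for the Cyp2c and Cyp3a genes and for Alb, while Cyp11a1, Cyp17a1 and Cyp2j13 are highest in CONT replicate 2.

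Genes of steroid hormone synthesis were also at trace levels, and the highest libraries were other ones. Cyp11a1, which cleaves the cholesterol side chain, had 15, 72 and 8 reads in CONT and 2, 8 and 7 in CAC. Cyp17a1, the hydroxylase and lyase of androgen synthesis, had 9, 68 and 5 reads in CONT and 3, 4 and 2 in CAC. Both peaked in CONT replicate 2, and in CPM both were lower in every CAC library than in every CONT library (0.362 to 3.15 against 0.0821 to 0.323 for Cyp11a1, and 0.226 to 2.98 against 0.0755 to 0.161 for Cyp17a1). They did not pass edgeR's filter, and DESeq2 gave adjusted p of 0.0997 and 0.0666. The germ cell markers were high in CONT replicate 2 but higher still in CAC replicate 3, where Cyp11a1 and Cyp17a1 had 7 and 2 reads. The 6 Leydig cell markers summed to 17.3 CPM in CONT replicate 2 against 8.34 to 10.3 CPM in the other libraries. Whether testis RNA contributed was not tested. The adrenal genes Cyp21a1 and Cyp11b1 had 8 and 9 reads in CONT replicate 1, 1 read each in CAC replicate 3 and none in the other libraries. Cyp19a1, the aromatase that makes estrogen, had at most 3 reads in any library. In vitamin D metabolism, Cyp2r1 was tested at 0.981 to 2.35 CPM in CONT and 0.888 to 1.48 CPM in CAC with overlap, and Cyp27b1 and Cyp24a1 had at most 3 reads in any library.

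Most P450 genes lie in arrays of close relatives, and expression in fat did not extend over a whole array. With genes joined at gaps of up to 500 kb, 71 of the 94 lay in 10 clusters and 23 stood alone. Of the clustered genes 10 were expressed, and of the lone ones 8. On chromosome 15, Cyp2d22 was the only expressed gene of 8 between 82370527 and 82794294. On chromosome 17, Cyp4f17, Cyp4f16 and Cyp4f13 were 3 of 8 between 32468462 and 32947402. On chromosome 7, Cyp2f2 and Cyp2b10 were 2 of 13 between 25802475 and 27158668, and the 14 Cyp2c genes between 39007019 and 40187333 on chromosome 19 held none. Close relatives can share reads. In 13 genes over 10% of the 100-base words of their transcripts occurred in another gene, and 0 of these were expressed, while 43 genes shared none.

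P450 enzymes need heme and electrons. Alas1, the first and rate-limiting enzyme of heme synthesis outside red cells, had 165, 171 and 208 CPM in CONT and 755, 659 and 930 CPM in CAC. The groups were far apart, and the log2 fold change of 2.11 (SE 0.26, adjusted p = 0.127 by edgeR and 5.10e-17 by DESeq2) ranked 14 among all genes by edgeR's p. It was the only one of 13 heme genes tested that was higher in CAC at an unadjusted p under 0.05, and Blvra, a heme breakdown enzyme, and Ppox, a late synthesis enzyme, were lower at -0.52 and -0.70. The oxidoreductase gene Por had 164, 446 and 644 CPM in CONT and 823, 782 and 705 CPM in CAC, without overlap (0.88, SE 0.48, adjusted p = 0.462; 0.51 without CONT replicate 1 and 1.35 without CONT replicate 3). Of 9 electron donor genes tested, 0 were higher at an unadjusted p under 0.05 and 2 were lower, the mitochondrial Cyb5b at -0.79 (SE 0.22, adjusted p = 0.273 by edgeR and 0.0167 by DESeq2) and Cyb5r1 at -0.86 (SE 0.29, adjusted p = 0.305). Cyb5a, which aids P450 reactions in the endoplasmic reticulum, had 295 to 537 CPM in CONT and 487 to 859 CPM in CAC, with overlap.

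Genes that work on P450 products had values on both sides of 0, and edgeR gave none an adjusted p under 0.05. Ephx2, the soluble epoxide hydrolase that opens fatty acid epoxides, had 223, 153 and 201 CPM in CONT and 466, 325 and 399 CPM in CAC, without overlap (1.04, SE 0.26, adjusted p = 0.242 by edgeR and 0.00462 by DESeq2), and is also in the table of genes that the study picked. Adh5, an alcohol dehydrogenase, was also higher (0.72, SE 0.22, adjusted p = 0.283 by edgeR and 0.0484 by DESeq2), and the lipoxygenase gene Alox12 was lower (-2.44, SE 0.58, adjusted p = 0.238 by edgeR and 0.00231 by DESeq2). In that list of 16 tested, 2 were higher and 3 lower at an unadjusted p under 0.05, with a median of -0.03. Among conjugating enzymes and flavin monooxygenases, 5 of 19 were higher and 3 lower at such a p, with a median of 0.53. Of all genes tested, 6.31% were higher and 6.95% lower, and the median was -0.06. Fmo5 had 29.2 to 44.3 CPM in CONT and 99.2 to 126 CPM in CAC (1.61, SE 0.22, adjusted p = 0.157 by edgeR and 1.39e-07 by DESeq2), Fmo2 was 1.39 higher (SE 0.24, adjusted p = 0.215 and 2.08e-05), and the glutathione transferase Gstm2 had a log2 fold change of -0.78 (SE 0.17, adjusted p = 0.228 and 0.000308).

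In retinoic acid synthesis and binding, 1 of 12 genes tested was higher in CAC at an unadjusted p under 0.05 and 1 lower, with a list median of -0.48. The higher one was Dhrs9 at 3.01 (SE 0.57, adjusted p = 0.215 by edgeR and 7.68e-05 by DESeq2). Of 10 partners of steroid synthesis tested, 1 was higher, Hsd17b12 at 1.01, and 1 lower, Srd5a2 at -4.25. None of the 4 oxysterol and bile acid partners tested had an unadjusted p under 0.05. Of the 3 P450 proteins with other symbols, which the name rule leaves out, none did. Cyp51, the demethylase of cholesterol synthesis, had 51.8 to 61.4 CPM in CONT and 40.0, 60.9 and 290 CPM in CAC, where CAC replicate 3 alone was high, and its log2 fold change went from 1.20 (SE 0.72, adjusted p = 0.498) to -0.17 without that library. Prostacyclin synthase (Ptgis) and thromboxane synthase (Tbxas1) had log2 fold changes of -0.31 and 0.03.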

How the data were processed

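Poly(A) RNA of eWAT was sequenced from 3 CONT and 3 CAC mice. The authors aligned reads with HISAT2 2.0.5 and counted them per gene with featureCounts 1.5.0-p3 (the submitters' processing notes). The deposited counts are whole reads without normalization. The deposited FPKM divide the counts by gene length and by a size factor of the library, which is not its total of counted reads. Alignment, strand setting and handling of shared reads could not be changed here. Groups came from the sample labels. Counts were tested with edgeR 4.0.16 in R 4.3.3 (quasi-likelihood, robust, TMM, filter by expression, Benjamini-Hochberg over all genes tested), with condition as the only term. CPM use TMM library sizes. A called gene has an adjusted p under 0.05, and groups do not overlap where every library of one is above every library of the other. DESeq2 1.42.0, voom and limma on log2(FPKM + 1) or log2(FPKM + 0.1) with limma 3.58.1 were alternatives. Genes named are the expressed P450 genes, tested ones with an unadjusted p under 0.05 or groups that do not overlap, up to 5 trace genes of a role, and at most 3 of each other list by p plus Ephx2 and Por. Genes named outside this rule include Ahr, Ehhadh, Lep, Alb, Fgb, Ttr and further trace genes of family 2. Some genes of these lists are not reported here. The P450 genes and gene lists were chosen with earlier results of these data known. Shared 100-base words were counted against GENCODE M21 transcripts. Each library is 1 mouse, and depth set 1 CPM at 11.2 to 26.5 reads.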

Additional observations from a re-analysis of the deposited data

How the results depend on the processing

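No P450 gene had an adjusted p under 0.05 with edgeR under relative log expression or upper-quartile scaling, without mitochondrial genes, without a filter or with at least 10 counts in every library, without robust estimation, with any 1 library left out, or with limma on FPKM. There were 5 such genes with DESeq2 (965 of all genes) and 5 with voom and sample quality weights (956), and, chosen after seeing the data, 2 (without CAC replicate 3) to 7 (without CONT replicate 1 or CAC replicate 1) with DESeq2 and 1 library left out, where 615 to 2102 of all genes passed. The DESeq2 set held Cyp2b10 and the voom set held Cyp1a1 in its place, the other genes being the same. The count at an unadjusted p under 0.05 was 8 in edgeR (13.3% of all genes), 13 with DESeq2 (9.73%), 14 with DESeq2 without CONT replicate 1 (13.2%), and 5 without CONT replicate 2 to 9 with edgeR and 1 library left out. Without a filter 82 P450 genes were tested, and 31 to 38 with 1 library left out.

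The replicate numbers do not mark shared animals, and deviations of same-numbered libraries correlated at 0.31, -0.15 and -0.22. CONT replicates 2 and 3 correlated best with CAC replicates 3 and 2. With the replicate block, 0 P450 genes had an adjusted p under 0.05 and 6 an unadjusted one (11.5% of all genes, of which 1 had an adjusted p under 0.05).

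Of the 20 P450 genes tested that were expressed or had groups without overlap, 14 kept their sign under every setting that gave a value. Cyp2f2 turned to -0.27 (edgeR) and -0.26 (DESeq2) without CAC replicate 2, and in edgeR ranged to 1.57 without CAC replicate 1. Cyp27a1 turned to 0.025 without a filter, to 0.039 and 0.051 without CONT replicate 2, to 0.022 and 0.050 without CONT replicate 3 and to 0.22 and 0.25 without CAC replicate 3 (-0.24 to 0.22 in edgeR). Cyp4f13 turned to -0.085 and -0.082 without CONT replicate 2 and to -0.077 and -0.066 without CONT replicate 3 (up to 0.52 without CONT replicate 1). Cyp4f18 turned to -0.061 with voom, to -0.050 and -0.025 without CONT replicate 3 and to -0.15 and -0.13 without CAC replicate 3 (up to 0.27 without CAC replicate 2). With DESeq2, Cyp2j6 turned to 0.0044 without CONT replicate 1 and Cyp2j9 to 0.018 without CONT replicate 3. The cause was not tested. The filter on low counts left 65 P450 genes untested at this depth, and a count of 0 allows up to 3 reads.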
